A study of Gossypium herbaceum with 12 samples.

Results

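The genes described here are 49 probe sets for photosynthesis, glycolysis and sugar metabolism, out of 24132 on the Affymetrix Cotton Genome array (23977 without controls). They were chosen by words in the annotation such as chlorophyll, pyruvate, starch or trehalose, among the 1712 probe sets that the study had listed as differing between the accessions Vagad and RAHS-14. Of the 49, 25 had been listed on irrigated plants only, 11 on drought plants only and 13 on both, 36 of them on the Vagad side and 13 on the RAHS-14 side. The accession difference in the condition that listed a member was therefore part of the choice and is given below as a description. The drought difference within each accession was not used for the choice, although it shares plants with it.

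Leaf RNA came from 12 potted *G. herbaceum* plants of 1 month of age, grown in a greenhouse in soil with manure, each hybridized to 1 array. The labels call the accessions tolerant and sensitive, which the methods name as Vagad and RAHS-14. Each accession had 3 plants that were irrigated daily and 3 under drought, from which irrigation was withheld except for a watering in alternate weeks. No plant carried a transgene, and an accession stands for 1 genotype, so a difference between accessions is a difference between these 2 lines as grown here.

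Vagad drought plants 1 and 2 gave arrays unlike the rest. As deposited, these had a median signal of 322.8 and 345.5, where the remaining 10 arrays lay between 61.4 and 74.78, and their rank correlations with those 10 were 0.594 and 0.438 against 0.944 to 0.957. Control probe sets for tag sequences had medians of 89 and 96.7 there, against 1.36 to 7.43. The main comparisons therefore used 10 arrays, and the Vagad drought group was 1 plant (plant 3), whose spread was assumed to be like that of the other groups. A fit with all 12 arrays is given beside the results. The log2 ratio of the 3' to the 5' probe sets of 3 control genes, a sign of RNA quality, was 1.889 to 2.092 in drought and 2.309 to 3.036 in irrigated RAHS-14, and 3.125 in Vagad drought plant 3 against 2.061 to 2.551 in irrigated Vagad. It thus moved with drought without overlap, down in RAHS-14 and up in Vagad plant 3, and its part in the results was not tested. Vagad drought plants 1 and 2 had -0.278 and 0.548, below all other arrays.

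In a leaf, pigment-protein complexes capture light, and the Calvin cycle uses that energy to turn CO2 into triose phosphates. The triose phosphates are exported for sucrose synthesis, stored as starch, or broken down through glycolysis to phosphoenolpyruvate, pyruvate and malate. Trehalose 6-phosphate, made by trehalose-phosphate synthase and removed by trehalose-phosphatase, follows the sucrose status of the cell, and water deficit is known to shift sugar pools in leaves.

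Many of these probe sets were dim. All values below are log2 signals after quantile normalization, on which every array had a median of 6.12 and signals below 10.4 were set to a floor of 3.38 on the log2 scale. Of the 49 members, 33 were above the array median on at least 3 of the 10 arrays and were tested, a share to be read against 52.5% of all probe sets. The other 16 were not tested. On all 10 arrays 28 members were above the median, 14 were above it on none, and 8 were at the floor on at least 5 arrays, which held for 21.5% of all probe sets. All 9 members listed under irrigation on the RAHS-14 side were tested, whereas 13 of the 29 listed there on the Vagad side were not.

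**Figure D1:**
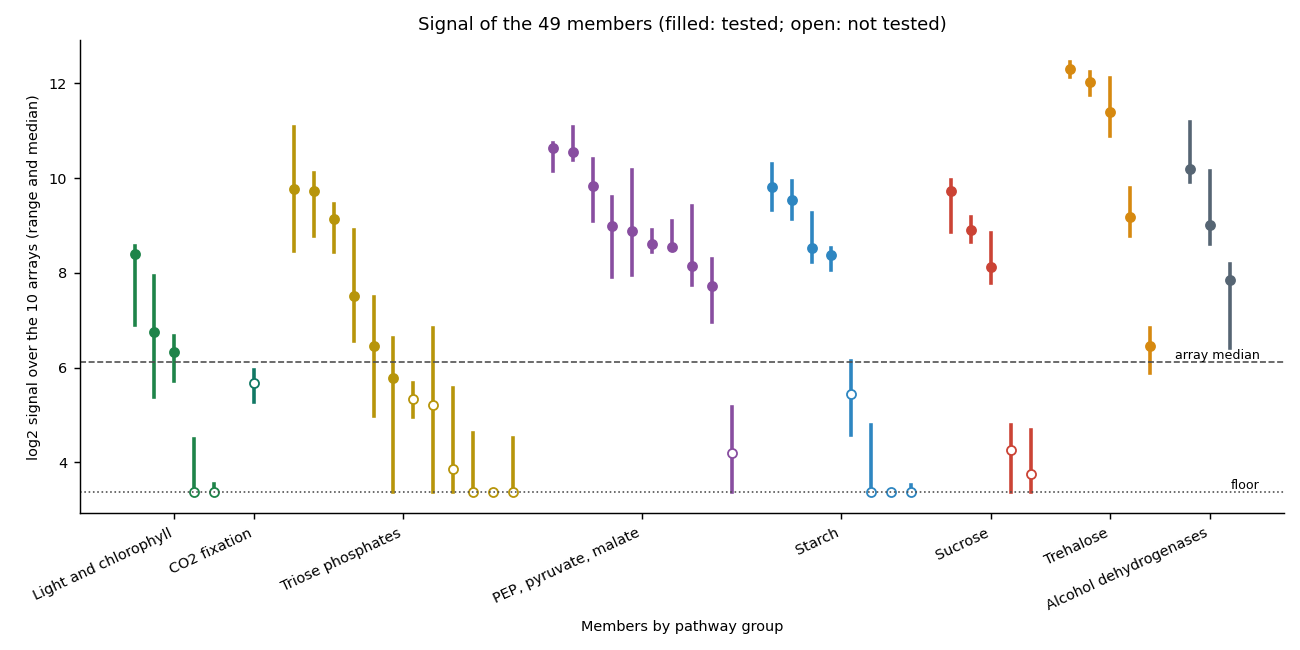
Log2 signal of the 49 members over the 10 arrays, by pathway group; the line spans the lowest to the highest array and the circle is the median, filled for the 33 members tested and open for the 16 not tested. The dashed line is the array median (6.12) and the dotted line the floor (3.38); levels of different probe sets are not comparable, only their place against these lines, and the pyruvate, trehalose and alcohol dehydrogenase groups lie mostly above the median while the CO2 fixation member and several triose phosphate and starch members lie below it.

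The members that mark green leaf tissue were in part dim. Of 7 light and Calvin cycle markers, the D1 subunit was above the median on all 10 arrays, the pair of chlorophyllide a oxygenases on 7 and 6, and the other 4 on none, so that 3 were tested. Of 28 further listed probe sets found by pathway keywords, cell wall enzymes included, 16 were above the median on all 10 arrays and 10 on none. Bright ones were a carbonate dehydratase (GhiAffx.59884.1.A1_at, 10.02 to 10.54), a magnesium chelatase of chlorophyll synthesis (GhiAffx.863.1.S1_at, 8.86 to 9.75) and a ferredoxin thioredoxin reductase chain (GhiAffx.59483.1.S1_s_at, 9.04 to 9.83). Those above it on none included both phosphoribulokinase and both aldolase probe sets and a thylakoid lumenal protein (GraAffx.32630.1.A1_s_at, 3.38 to 4.0). The nonphotochemical quenching protein, which sheds excess light as heat, had a pair of probe sets. Ghi.6877.1.A1_at was at the floor on 8 of the 10 arrays, with 4.25 in Vagad irrigated plant 2 and 4.50 in Vagad drought plant 3. Ghi.6877.2.A1_at was at the floor on 9 of the 10. Vagad drought plants 1 and 2, kept apart, read 3.38 and 11.03 for the first and 4.52 and 3.38 for the second. Rubisco activase, which frees the active site of rubisco, lay between 5.27 and 5.94 (Ghi.1138.1.S1_at), below the median on every one of the 10 arrays. In Vagad drought plants 1 and 2 it read 8.96 and 4.66. The chloroplast B subunit of glyceraldehyde-3-phosphate dehydrogenase (GAPDH), an enzyme of the Calvin cycle, was at the floor on 7 of the 10 arrays (Ghi.1558.1.S1_at). It reached 4.61 at most on these, and read 4.36 and 3.38 in Vagad drought plants 1 and 2. The summed deposited signal of these 7 markers was 468.3 to 728.2 in irrigated Vagad, 661.1 in Vagad drought plant 3, 455.4 to 597.5 in irrigated RAHS-14 and 558.4 to 569.7 in drought RAHS-14. Another list held 4 listed probe sets, 1 annotated to a fiber protein and 3 to a family of seed storage, lipid transfer and protease inhibitor proteins. It summed to 10540 to 11880, 16560, 10480 to 11480 and 11860 to 12640 in the same order of groups, and the sums of different probe sets are not comparable with each other. Of these 4, the fiber protein and GhiAffx.44558.1.S1_s_at were above the median on all 10 arrays, while GhiAffx.6046.1.S1_at read 5.58 to 6.51 in irrigated plants and 3.38 to 4.87 under drought. The part of either list in the results below was not tested.

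Under drought, RAHS-14 plants had 5 members at least 2-fold higher and 3 at least 2-fold lower than irrigated RAHS-14 plants, with an adjusted p under 0.05 (limma, Benjamini-Hochberg over all 12594 probe sets tested). The higher ones were a GAPDH, a probe set annotated as both aldehyde dehydrogenase and GAPDH, an alanine-glyoxylate / beta-alanine-pyruvate aminotransferase and both allyl alcohol dehydrogenases. The lower ones were a chlorophyllide a oxygenase, a malic enzyme and an alcohol dehydrogenase. These 8 are 24.2% of the 33 members tested. The same rule was met by 8.08% of all probe sets tested, 3.46% higher and 4.62% lower. The listing had used irrigated or drought plants of both accessions, which also enter these drought differences. Here and in the groups below, shares of listed probe sets beside all probe sets are therefore a description. They cannot test whether listed probe sets responded to drought more often than all probe sets. The median difference of the members was 0.06, and that of all probe sets tested was 0.003. In Vagad, plant 3 under drought differed from the irrigated plants by this rule in 2 members, 1 higher and 1 lower. The background there was 10.2% (4.5% higher and 5.74% lower), and the median of the members was -0.11. By an adjusted p alone, with no fold required, 17 members differed in RAHS-14 and 9 in Vagad, where 36.8% and 29.8% of all probe sets tested did. Groups that did not overlap, as given for single members below, were found for 53.8% of all probe sets tested in RAHS-14 and 75.7% in Vagad. With all 12 arrays no member met the rule in either accession (limma), and 2 members in RAHS-14 and 10 in Vagad had an unadjusted p under 0.05. In RAHS-14, the differences themselves were the same in that fit and the spread, estimated over all 12 arrays, was wider. In it 1.01% of all probe sets tested met the rule for RAHS-14 and 4.72% for Vagad, and the median Vagad difference of all probe sets moved to -0.73.

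**Figure D2:**
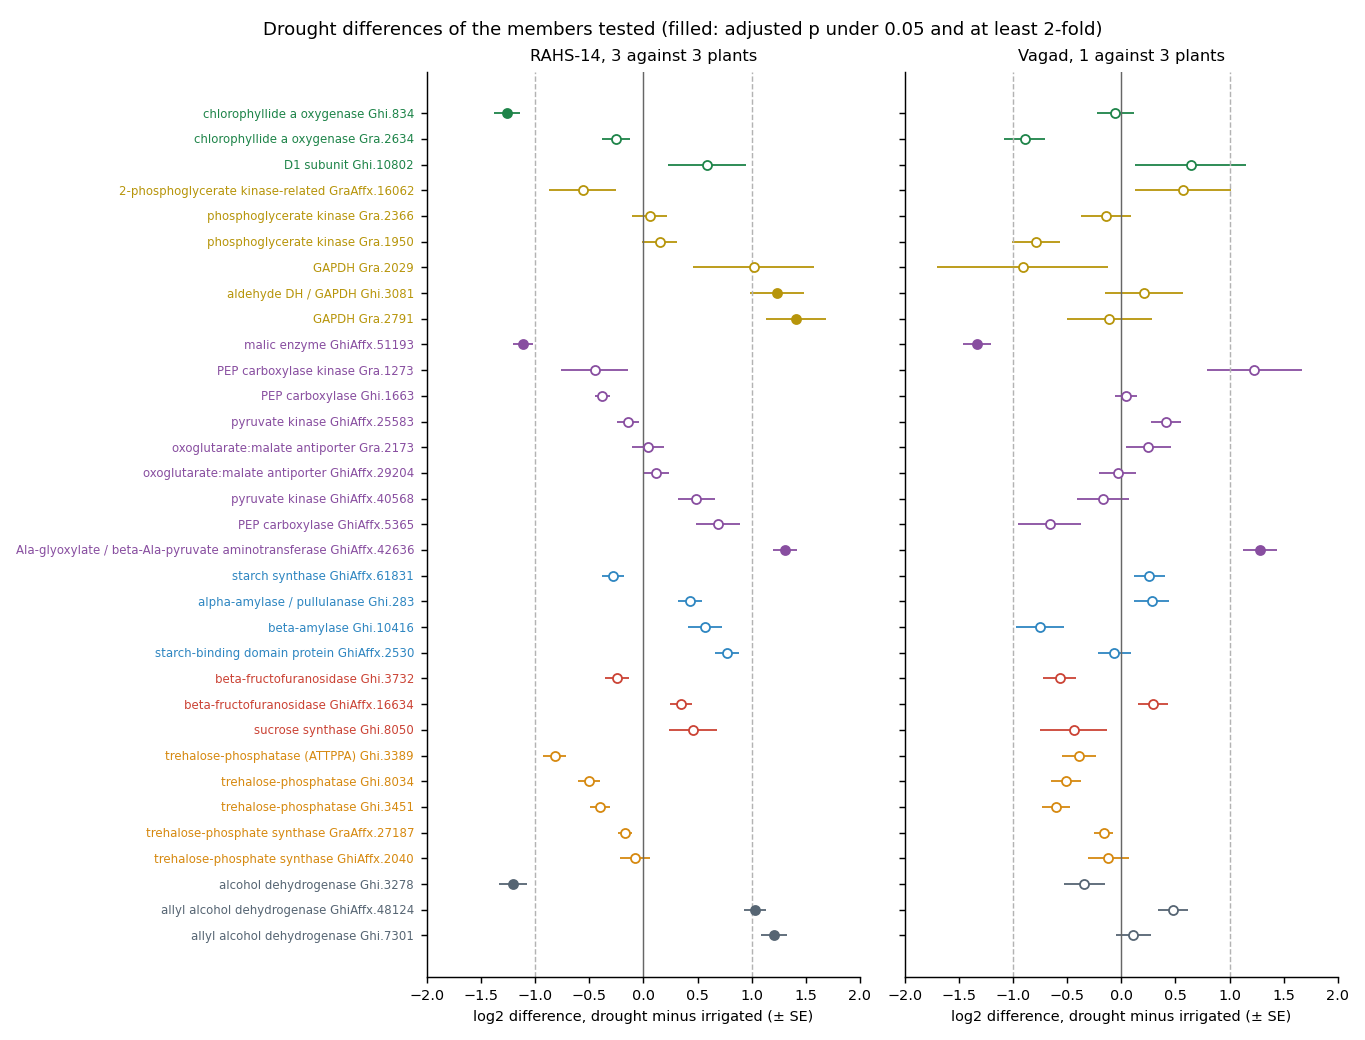
Log2 difference between drought and irrigated plants (± SE of the limma fit) for the 33 members tested, with RAHS-14 (3 against 3 plants) on the left and Vagad (1 against 3 plants) on the right; colours mark the pathway groups, filled points have an adjusted p under 0.05 and at least a 2-fold difference, and dashed lines mark 2-fold. Filled points number 8 in RAHS-14 and 2 in Vagad, and the 5 trehalose members lie left of 0 in both panels.

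Among the light and chlorophyll genes, chlorophyllide a oxygenase, which makes chlorophyll b from chlorophyll a precursors, fell in RAHS-14. Probe set Ghi.834.1.A1_at read 6.71, 6.69 and 6.79 in irrigated and 5.39, 5.48 and 5.55 in drought RAHS-14 plants. The drought plants were all below the irrigated ones, and the log2 difference was -1.26 ± 0.12 (SE), a 2.39-fold decrease (adjusted p = 8.35e-05, limma). In Vagad the irrigated plants read 7.43, 7.61 and 7.94 and drought plant 3 read 7.60, inside the irrigated range. The second probe set for the enzyme, Gra.2634.1.S1_at, gave -0.25 ± 0.13 in RAHS-14 (adjusted p = 0.179) and -0.89 ± 0.19 in Vagad (adjusted p = 0.00859, limma). The pair thus differed in which accession had the larger drought difference, and neither value of the second reached 2-fold. The probe set annotated as D1 subunit of the photosystem reaction centers read 7.64, 8.38 and 7.78 in irrigated and 8.54, 8.56 and 8.47 in drought RAHS-14 (Ghi.10802.1.S1_at). Although these groups did not overlap, the difference of 0.59 ± 0.36 had an adjusted p of 0.239 in the limma fit, in which irrigated Vagad spread from 6.89 to 8.50. Fitted on the 2 RAHS-14 groups alone it was 0.59 ± 0.19 (adjusted p = 0.0461, limma), under 2-fold. Rubisco activase, not tested, had means of 5.67 ± 0.17 and 5.61 ± 0.32 (SD, n = 3) in irrigated and drought RAHS-14.

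In the triose phosphate group, 2 of 6 members tested rose in RAHS-14 under drought. GAPDH catalyses the oxidation of glyceraldehyde 3-phosphate in glycolysis, and its probe set Gra.2791.2.S1_x_at read 7.19, 7.01 and 7.73 in irrigated and 8.91, 8.62 and 8.64 in drought RAHS-14. The groups were separate, with a difference of 1.41 ± 0.28 or 2.66-fold (adjusted p = 0.00436, limma). Probe set Ghi.3081.1.S1_s_at, annotated as both aldehyde dehydrogenase and GAPDH, read 9.92, 9.75 and 9.80 in irrigated and 11.06, 11.02 and 11.08 in drought RAHS-14. Its difference was 1.23 ± 0.25, or 2.34-fold (adjusted p = 0.0056, limma). In Vagad drought plant 3 the pair read 7.09 and 9.40, inside the irrigated Vagad ranges of 6.56 to 7.60 and 8.47 to 9.62. Another GAPDH, Gra.2029.1.S1_s_at, reached 1.02 ± 0.56 in RAHS-14, and there 1 irrigated plant was at the floor (3.38) while the others read 5.52 and 5.84. Its drought values of 6.40, 5.65 and 5.74 overlapped with them (adjusted p = 0.189, limma).

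Among 3 dim GAPDH probe sets that were not tested, 1 had lower and 1 had higher values under drought. Gra.3030.2.A1_s_at read 5.27, 5.02 and 5.56 in irrigated RAHS-14 and 3.38, 3.38 and 3.58 under drought. All of these readings were below the array median, and 2 of the drought values were at the floor. Gra.1758.1.A1_s_at read 4.54, 5.16 and 3.38 in irrigated Vagad and 6.84 in drought plant 3. In RAHS-14 it read 4.92 to 5.26 in irrigated and 5.68 to 5.97 in drought plants, higher without overlap. Gra.2689.1.S1_s_at was at the floor on all 10 arrays. Phosphoglycerate kinase, which forms ATP in the next step of glycolysis, had 2 of its 4 probe sets tested. Gra.2366.1.A1_x_at and Gra.1950.1.A1_x_at changed by 0.06 ± 0.16 and 0.15 ± 0.16 in RAHS-14 and by -0.14 ± 0.23 and -0.79 ± 0.22 in Vagad. Of these values, -0.79 had an adjusted p of 0.0298 (limma) and was under 2-fold.

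In the phosphoenolpyruvate, pyruvate and malate group, 9 of 10 members were tested, and the same 2 members met the rule in both accessions. These were also the only members that did so in Vagad. Malic enzyme, which splits malate into pyruvate and CO2, read 9.16, 9.06 and 8.91 in irrigated and 7.91, 7.95 and 7.95 in drought RAHS-14 (GhiAffx.51193.1.S1_at). In Vagad it read 9.51, 9.39 and 9.61 in irrigated plants and 8.17 in drought plant 3. Drought values were below all irrigated values in each accession, with differences of -1.11 ± 0.09 in RAHS-14 (adjusted p = 2.8e-05) and -1.33 ± 0.13 in Vagad (adjusted p = 0.000166, limma), or 2.16-fold and 2.52-fold. Vagad drought plants 1 and 2 read 7.59 and 4.20, and with all 12 arrays the Vagad difference was -2.85 (adjusted p = 0.0642, limma).

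The aminotransferase, which moves amino groups between alanine and glyoxylate or pyruvate, moved the other way. GhiAffx.42636.1.S1_s_at read 8.58, 8.87 and 8.91 in irrigated and 10.18, 10.14 and 9.99 in drought RAHS-14. In Vagad it read 7.99, 7.96 and 8.22 in irrigated plants and 9.34 in drought plant 3. Both accessions were higher under drought without overlap, by 1.31 ± 0.11 (adjusted p = 4.32e-05) and 1.28 ± 0.16 (adjusted p = 0.000733, limma), or 2.48-fold and 2.44-fold. Vagad drought plants 1 and 2 read 4.87 and 8.34, and with all 12 arrays the sign of the Vagad difference turned, to -0.54.

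**Figure D3:**
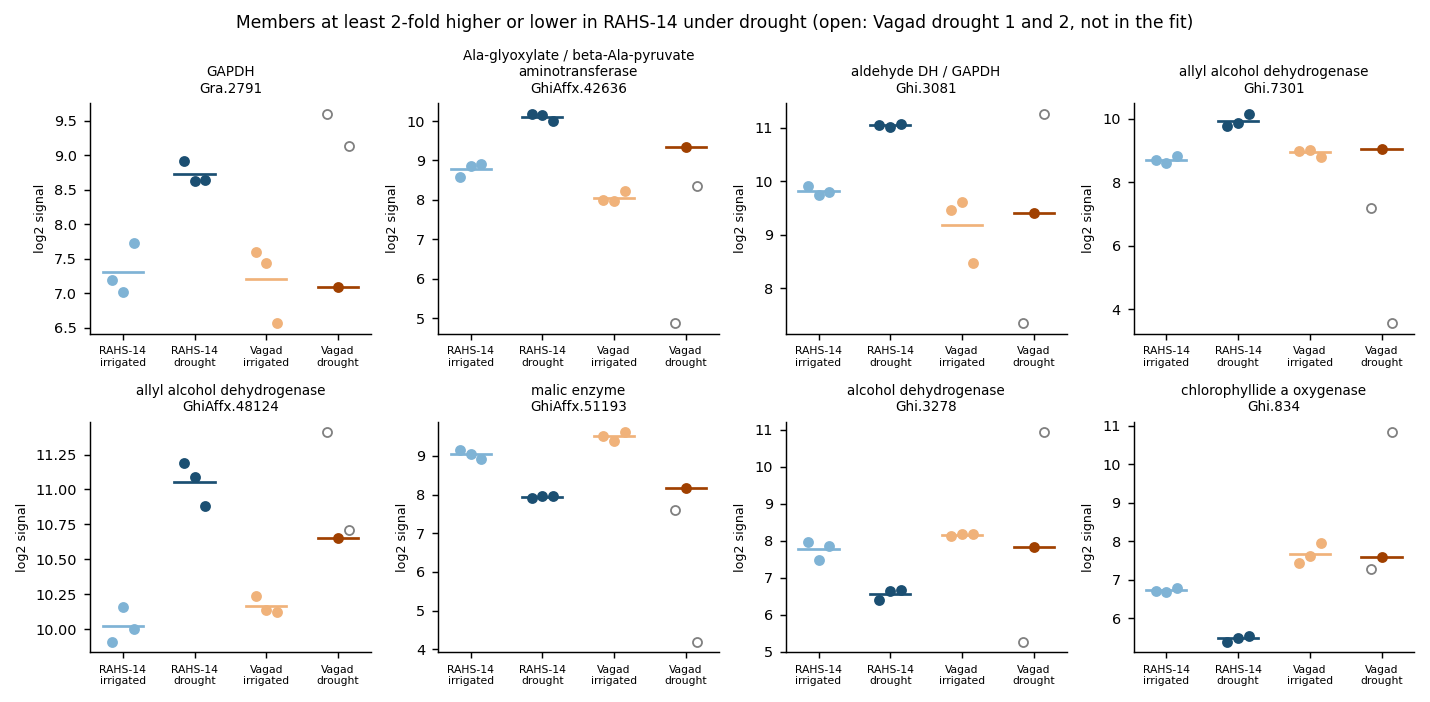
Log2 signal of each plant for the 8 members at least 2-fold higher or lower in RAHS-14 under drought (adjusted p under 0.05); bars are group means, and open grey circles are Vagad drought plants 1 and 2, which are not in the means. In each panel the 3 drought RAHS-14 plants lie wholly above or wholly below the 3 irrigated ones, and the open circles lie up to several log2 units from Vagad drought plant 3.

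The enzymes around phosphoenolpyruvate did not move as a group. Phosphoenolpyruvate carboxylase, which adds CO2 to phosphoenolpyruvate to make oxaloacetate, had 2 probe sets that differed in sign. Ghi.1663.1.S1_s_at read 10.65, 10.60 and 10.61 in irrigated and 10.14, 10.28 and 10.30 in drought RAHS-14, a small difference of -0.38 ± 0.07 (adjusted p = 0.00294, limma). GhiAffx.5365.1.A1_at read 7.88, 6.97 and 7.60 in irrigated and 8.11, 8.30 and 8.10 in drought RAHS-14, a difference of 0.69 ± 0.20 (adjusted p = 0.0276, limma). Both were under 2-fold, and in Vagad the differences were 0.05 ± 0.10 and -0.66 ± 0.29, neither with an adjusted p under 0.05. The kinase that phosphorylates the carboxylase, Gra.1273.2.S1_at, gave -0.45 ± 0.31 in RAHS-14, which was -0.08 without irrigated plant 2 (9.17 against 8.01 and 8.12 in the others). In Vagad it gave 1.23 ± 0.44, where plant 3 read 9.42 against 8.03, 8.15 and 8.38 in irrigated plants (adjusted p = 0.063, limma). Pyruvate kinase, the last step of glycolysis, gave -0.14 ± 0.10 and 0.49 ± 0.17 in RAHS-14 for GhiAffx.25583.1.A1_s_at and GhiAffx.40568.1.A1_s_at, with 0.41 ± 0.14 and -0.17 ± 0.24 in Vagad. The oxoglutarate:malate antiporters, which exchange these acids across the chloroplast envelope, differed by 0.25 or less in either accession. Pyruvate, phosphate dikinase (Ghi.1464.1.S1_s_at) was below the median on all 10 arrays, and read 8.55 and 3.38 in Vagad drought plants 1 and 2.

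For starch, 4 of 8 members were tested and none met the 2-fold rule in either accession. In RAHS-14, 3 had higher values under drought with an adjusted p under 0.05 (18.6% of all probe sets tested did) and none had lower ones. The starch-binding domain protein read 8.23, 8.59 and 8.52 in irrigated and 9.15, 9.25 and 9.27 in drought plants (GhiAffx.2530.1.S1_at), a difference of 0.77 ± 0.11 (adjusted p = 0.000608, limma). In Vagad it gave -0.06 ± 0.15. Beta-amylase, which releases maltose from starch, read 9.54, 9.33 and 9.60 in irrigated and 9.78, 10.21 and 10.20 in drought RAHS-14 (Ghi.10416.1.S1_s_at). This was a difference of 0.57 ± 0.16 (adjusted p = 0.0205, limma), and in Vagad the difference was -0.75 ± 0.22 (adjusted p = 0.0359), with plant 3 at 9.35 below 10.16, 10.30 and 9.83. The debranching enzyme annotated as alpha-amylase / limit dextrinase / pullulanase (Ghi.283.1.S1_s_at) gave 0.43 ± 0.11 in RAHS-14 and 0.28 ± 0.16 in Vagad. Starch synthase, which lengthens the glucan chains, gave -0.28 ± 0.10 and 0.26 ± 0.14 for GhiAffx.61831.1.S1_at. Of the other 3 starch synthase probe sets, GraAffx.25027.1.A1_s_at was at the floor on all 10 arrays and GraAffx.27105.1.A1_s_at on 8. Chloroplast beta-amylase (Ghi.4227.1.S1_s_at) read 4.07, 3.81 and 4.79 in irrigated RAHS-14 and the floor value in all 3 drought plants, and was not tested.

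**Figure D4:**
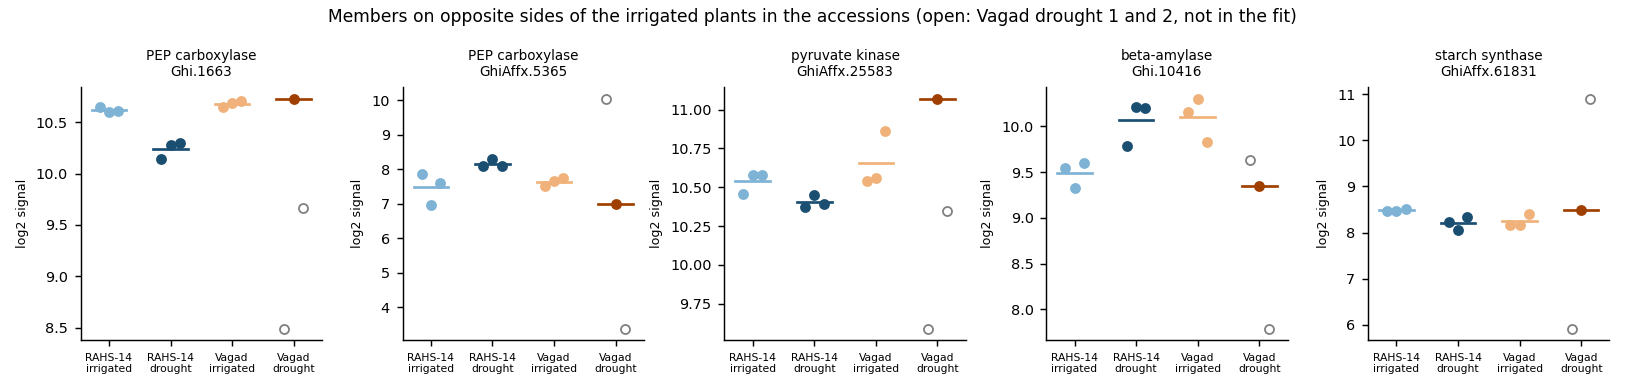
Log2 signal of each plant for 5 members whose drought plants lay on opposite sides of the irrigated plants in RAHS-14 and in Vagad; bars are group means, and open grey circles are Vagad drought plants 1 and 2, which are not in the means. The Vagad side rests on 1 drought plant, and in the beta-amylase panel it reads 9.35 against irrigated values of 9.83 to 10.30.

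For sucrose, 3 of 5 members were tested and none met the 2-fold rule. Sucrose synthase, which cleaves sucrose into UDP-glucose and fructose, gave 0.46 ± 0.22 in RAHS-14 and -0.44 ± 0.31 in Vagad (Ghi.8050.1.S1_s_at), with adjusted p values of 0.134 and 0.303 (limma). The RAHS-14 groups overlapped, and Vagad drought plant 3, at 9.32, lay below the irrigated plants at 9.68 to 9.84. Beta-fructofuranosidase, or invertase, splits sucrose into glucose and fructose. Its probe set GhiAffx.16634.1.A1_s_at gave 0.35 ± 0.10 and 0.29 ± 0.14, and Ghi.3732.1.S1_s_at gave -0.24 ± 0.11 and -0.57 ± 0.15, in RAHS-14 and Vagad. The 2 probe sets for invertase therefore differed in sign in both accessions. The value in RAHS-14 of the first had an adjusted p of 0.0227 and the value in Vagad of the second one of 0.025 (limma).

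All 5 trehalose members had negative drought differences in both accessions, and none reached 2-fold. Trehalose-phosphatase, which removes the phosphate of trehalose 6-phosphate, had 3 probe sets. Ghi.3389.2.A1_s_at read 6.84, 6.67 and 6.80 in irrigated and 5.88, 6.05 and 5.92 in drought RAHS-14. Ghi.8034.1.S1_s_at read 11.39, 11.47 and 11.41 against 10.97, 10.89 and 10.93, and Ghi.3451.2.A1_at read 9.33, 9.19 and 9.17 against 8.80, 8.78 and 8.92. No drought plant overlapped with an irrigated one, and the differences were -0.82 ± 0.11, -0.50 ± 0.10 and -0.40 ± 0.09 (adjusted p = 0.000658, 0.0039 and 0.00796, limma). An adjusted p under 0.05 with a lower value was found for 18.2% of all probe sets tested in RAHS-14 and 14.8% in Vagad (15.0% with a higher value). In Vagad plant 3 the phosphatases gave -0.39 ± 0.16, -0.51 ± 0.14 and -0.60 ± 0.13 (adjusted p = 0.104, 0.0232 and 0.00844, limma). Trehalose-phosphate synthase gave -0.17 ± 0.06 and -0.08 ± 0.14 in RAHS-14 and -0.16 ± 0.09 and -0.12 ± 0.19 in Vagad for GraAffx.27187.1.S1_at and GhiAffx.2040.1.A1_s_at, none with an adjusted p under 0.05. With all 12 arrays none of these trehalose differences had an adjusted p under 0.05.

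**Figure D5:**
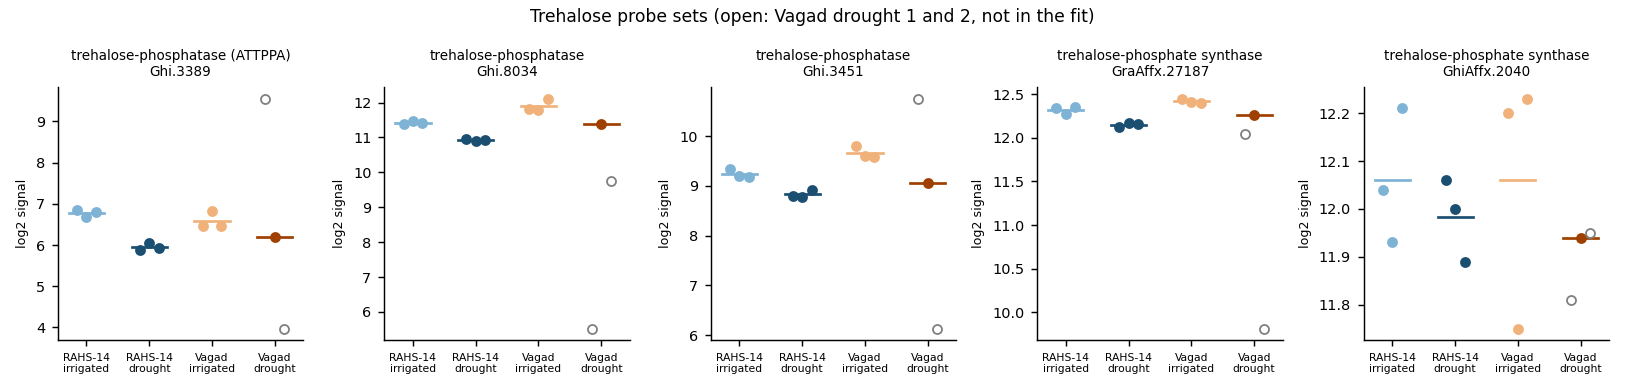
Log2 signal of each plant for the 5 trehalose members, ordered by the RAHS-14 drought difference; bars are group means, and open grey circles are Vagad drought plants 1 and 2, which are not in the means. For the 3 trehalose-phosphatases the drought plants of the 10 arrays lie below the irrigated plants of the same accession.

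All 3 alcohol dehydrogenases met the rule in RAHS-14, in both directions, where 8.08% of all probe sets tested did. In Vagad their differences were under 2-fold. Alcohol dehydrogenase, which reduces acetaldehyde to ethanol in fermentation, read 7.98, 7.47 and 7.87 in irrigated and 6.41, 6.64 and 6.67 in drought RAHS-14 (Ghi.3278.1.A1_s_at). Drought plants were lower without overlap, by -1.20 ± 0.13 or 2.30-fold (adjusted p = 0.000189, limma). Vagad plants read 8.12, 8.18 and 8.19 irrigated and 7.82 in drought plant 3, a difference of -0.34 ± 0.19 (adjusted p = 0.202, limma).

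The allyl alcohol dehydrogenases, oxidoreductases named for unsaturated alcohols, were higher under drought in RAHS-14. Ghi.7301.1.S1_s_at read 8.70, 8.61 and 8.83 in irrigated and 9.76, 9.87 and 10.15 in drought plants, and GhiAffx.48124.1.S1_at read 9.91 to 10.16 against 11.19, 11.09 and 10.88. The drought plants lay above the irrigated ones for both, with differences of 1.21 ± 0.12 and 1.03 ± 0.10 (adjusted p = 7.56e-05 and 9.26e-05, limma). The second is close to the 2-fold limit, at 2.04-fold, and was under it without RAHS-14 drought plant 1 (0.96) or irrigated plant 1 (0.97). It also did not meet the rule with signals as deposited, with arrays aligned at their medians or with all 12 arrays. In Vagad the differences were 0.11 ± 0.16 and 0.48 ± 0.14, the latter with an adjusted p of 0.0369 (limma).

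Between the accessions under drought, 25 of the 38 members listed on irrigated plants passed the filter. Of these 25, 6 had also been listed on drought plants, and the other 19 had not been. The listing thus used this difference for both, so the counts and shares below are a description. They cannot test whether the members differed more often than all probe sets, because the choice had used the same difference. In all, 1 was at least 2-fold higher and 3 were at least 2-fold lower in Vagad drought plant 3 than in RAHS-14 (adjusted p under 0.05, limma). All 4 were among the 19. That is 16.0% of the 25 (21.1% of the 19), against 8.53% of all probe sets tested (3.41% higher and 5.11% lower). By an adjusted p alone 9 of the 25 differed, against 26.8% of all probe sets. The probe set annotated as related to 2-phosphoglycerate kinase was higher, at 7.49 against 6.08, 6.01 and 4.98 in RAHS-14 (GraAffx.16062.1.S1_s_at, 1.80 ± 0.44). Lower were the aldehyde dehydrogenase / GAPDH Ghi.3081.1.S1_s_at (-1.65 ± 0.36), the GAPDH Gra.2791.2.S1_x_at (-1.63 ± 0.39) and the phosphoenolpyruvate carboxylase GhiAffx.5365.1.A1_at (-1.19 ± 0.29). These 3 are members with positive drought differences in RAHS-14, and the drought RAHS-14 plants enter both comparisons. With all 12 arrays none of the 25 met the rule (limma; 2.9% of all probe sets did) and 5 had an unadjusted p under 0.05, and the GAPDH Gra.2791.2.S1_x_at difference was -0.11. The count was 1 with no filter on dim probe sets and 2 with the replicate number as a block, and this GAPDH did not meet the rule in either.

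Between the irrigated accessions, 8 of the 11 members listed only on drought plants passed the filter. Not having been listed on irrigated plants was part of their choice, so the counts are a description. None met the 2-fold rule (limma; background 3.72%), 2 had an adjusted p under 0.05 (20.4% of all probe sets did) and 3 an unadjusted p under 0.05. Chlorophyllide a oxygenase Ghi.834.1.A1_at was higher in Vagad, at 7.43, 7.61 and 7.94 against 6.71, 6.69 and 6.79 in RAHS-14 (0.93 ± 0.12). The aminotransferase GhiAffx.42636.1.S1_s_at was lower in Vagad, at 7.99, 7.96 and 8.22 against 8.58, 8.87 and 8.91 (-0.73 ± 0.11). Neither pair of groups overlapped.

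In the condition that had listed them, the accession differences of the deposited values ran as follows, as a description. They come from another summary of the arrays than the listing did, and the label of each array was taken as given, since no value here checks which accession a plant was. Over the 25 members tested and listed on irrigated plants, the irrigated difference (Vagad minus RAHS-14) ran from -0.64 to 1.63 with a median of 0.16, and 1 member was beyond 2-fold. That member was the GAPDH Gra.2029.1.S1_s_at, with 6.41, 6.58 and 6.63 in Vagad against 5.52, 3.38 and 5.84 in RAHS-14. Its difference of 1.63 was 0.86, under 2-fold, without RAHS-14 irrigated plant 2, which was at the floor. This GAPDH was above the array median on 4 arrays, those of the irrigated Vagad plants and RAHS-14 drought plant 1 (6.4). It passed the filter only through the irrigated Vagad plants, the side on which it was higher. Its count as the member beyond 2-fold was therefore not independent of the filter. Of the 16 listed on the Vagad side 11 had positive and 5 negative values, and of the 9 listed on the RAHS-14 side 7 had positive and 2 negative values. The largest irrigated differences of the sucrose and trehalose groups were 0.47 for both the invertase Ghi.3732.1.S1_s_at and the trehalose-phosphatase Ghi.8034.1.S1_s_at.

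Under drought, the described differences were larger in places. Chlorophyllide a oxygenase Ghi.834.1.A1_at differed by 2.13, with Vagad plant 3 at 7.60 against 5.39 to 5.55 in RAHS-14. Phosphoenolpyruvate carboxylase kinase Gra.1273.2.S1_at differed by 1.44 and alcohol dehydrogenase Ghi.3278.1.A1_s_at by 1.25, while phosphoglycerate kinase Gra.1950.1.A1_x_at differed by -1.10. Of the 3 members tested and listed under drought on the RAHS-14 side, 2 had positive values, this carboxylase kinase and the alcohol dehydrogenase, and 1 a negative one. Of the 11 listed on the Vagad side, 4 had positive and 7 negative values. Phosphoglycerate kinase and the starch-binding domain protein were among these 7. The starch-binding domain protein GhiAffx.2530.1.S1_at differed by -0.82 and rubisco activase by 0.32.

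Other genes of these pathways were few in the listed probe sets. By keywords such as transketolase, phosphofructokinase, aldolase or phosphoribulokinase, 28 further probe sets were found, of which 18 were tested, and the keywords also took in cell wall enzymes. In RAHS-14, 1 of the 18, a cell wall enzyme given below, met the rule as lower under drought, beside 4.62% of all probe sets tested. The glucose-6-phosphate transporter of plastids (GhiAffx.6053.1.S1_s_at) imports glucose 6-phosphate for starch synthesis in non-green plastids. It read 3.38, 3.99 and 3.60 in irrigated RAHS-14 and 9.22, 8.76 and 8.90 under drought, and 3.50, 4.53 and 3.96 in irrigated Vagad and 7.19 in drought plant 3. The irrigated plants lay at or near the floor, and the probe set was above the array median on the 4 drought arrays alone. It passed the filter only through them, so it is given by its values and not counted as higher, although it is among the 18 tested. Phosphofructokinase, an early step of glycolysis, gave 0.57 in RAHS-14 and -0.64 in Vagad (GhiAffx.4334.1.S1_at), both under 2-fold. A plastocyanin-like domain protein (Ghi.9197.3.S1_at) gave -0.28 in RAHS-14 and -1.47 in Vagad, where drought plant 3 read 7.84 against 9.16, 9.58 and 9.20 in irrigated plants. Vagad drought plants 1 and 2 read 3.38 and 9.64 for it. The xyloglucan:xyloglucosyl transferase Gra.623.2.S1_s_at, a cell wall enzyme, fell by 3.39 on the log2 scale in RAHS-14 and gave 0.08 in Vagad. The bright genes named with the leaf markers above were among the 28. Both aldolase probe sets, 1 of 2 magnesium chelatase probe sets, both phosphoribulokinase probe sets and the triose-phosphate transporter were below the array median on all 10 arrays.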

How the data were processed

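Linear MAS5 signals (intensity values) of 24132 probe sets on 12 arrays were deposited by the authors, who scaled every array to a common trimmed mean; the MAS5 version is not given in the labels. The study's own lists had come from another summary of the arrays. Here, 155 control probe sets were left out, and signals of 10 arrays were quantile normalized, floored at the median of the arrays' 20th percentiles (10.4) and taken to log2. Vagad drought arrays 1 and 2 were mapped on to the same distribution for display and for a 12-array fit. Probe sets above the array median on at least 3 arrays (12594) were fitted by group in limma 3.58.1 (R 4.3.3), with Benjamini-Hochberg adjustment over all of them; a call needed an adjusted p under 0.05 and at least 2-fold. The number of arrays limits the precision. The fit was tested on simulated data.

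The members, pathway groups and lists were chosen with earlier results of these data known. In each pathway group the text names the member with the highest mean signal, up to 3 called in RAHS-14 with the largest difference, the largest called in Vagad and the largest accession difference where listed; others named were chosen after their values were seen. Probe sets ending in _s_at or _x_at (29 and 3 of the 49) can bind several transcripts, and 32 members share a name with another member. Same-numbered plants did not deviate together (correlations of -0.095 to 0.059 over 9 pairs).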

Additional observations from a re-analysis of the deposited data

Results flagged for a closer look

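In 5 of the 33 members tested, every drought plant lay on 1 side of the irrigated plants in RAHS-14 and the drought plant of Vagad on the opposite side. Each is given as the log2 difference between drought and irrigated plants in Vagad, then in RAHS-14. The difference between the accessions' responses was not tested, and the Vagad value rests on 1 drought plant. Phosphoenolpyruvate carboxylase Ghi.1663.1.S1_s_at gave 0.05 and -0.38, and the second carboxylase probe set, GhiAffx.5365.1.A1_at, gave -0.66 and 0.69. Pyruvate kinase GhiAffx.25583.1.A1_s_at gave 0.41 and -0.14. Beta-amylase Ghi.10416.1.S1_s_at gave -0.75 and 0.57, and starch synthase GhiAffx.61831.1.S1_at gave 0.26 and -0.28. With 1 plant against 3, 75.7% of all probe sets tested did not overlap in Vagad, and 53.8% did not in RAHS-14. The share that lay on opposite sides in the accessions was not counted, so the 5 are a description and not a trait of the members.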

How the results depend on the processing

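With all 12 arrays, 0 members met the rule in RAHS-14, 0 in Vagad and 0 of the irrigated-listed members under drought, against 8, 2 and 4 with 10 arrays, and the aminotransferase GhiAffx.42636.1.S1_s_at turned from 1.28 to -0.54 in Vagad. An adjusted p alone, with no fold required, gave 17 members in RAHS-14, 9 in Vagad, 9 irrigated-listed members under drought and 2 drought-only-listed members under irrigation, where the rule with a fold gave 0. Of the irrigated-listed members under drought, 1 was called with no filter on dim probe sets and 2 with the replicate number as a block, and leaving out those also listed on drought plants, chosen after seeing the data, gave 4. Same-numbered plants did not deviate together, and the block changed no count by over 1.5 times elsewhere: it gave 8 in RAHS-14 and 2 in Vagad. Among the drought-only-listed members under irrigation, 1 was called with arrays aligned at their medians. Leaving out each of the 10 arrays in turn gave 7 to 8 members in RAHS-14. It gave 0 to 1 drought-only-listed members under irrigation, the 1 without Vagad irrigated plant 1. For Vagad under drought and for the accessions under drought, plant 3 could not be left out, because it was the only Vagad drought plant in the fit. How far those results depend on that plant was therefore not tested by leaving arrays out. The methods' t-test gave 8 in RAHS-14, before and after Benjamini-Hochberg. The cause of these differences was not tested. Under every setting, the counts between the accessions are a description, for irrigated-listed members under drought and drought-only-listed members under irrigation. The choice of those members had used the same accession difference.

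Of 467 alternatives of single named differences, 449 stayed on the same side of the threshold, 17 lost the call and 1 reversed. Direction was checked only for differences that met the rule in the main fit. The arrays' brightness limits the 16 members not tested.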
